A study of Mus musculus with 10 samples.

Results

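Complement transcripts were followed in KPN1.1 tumors grown under the skin of obese mice that received either the GLP-1 receptor agonist liraglutide or vehicle. The 9 genes described here, of 55401 gene identifiers counted, were taken by symbol: C1qa, C1qb, C1qc, C1s1, C2, C3, C4b, Cfb and Clu. Cfb and Clu were placed in the group because their levels were among the higher ones with liraglutide, so their treatment difference is given as a description without a test.

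KPN1.1 is a mouse lung adenocarcinoma line carrying the NINJA antigen cassette, and every tumor came from this same line. Male C57BL/6J mice made obese on a high-fat diet received 75000 cells under the skin of the flank at between 7 and 17 weeks of age. Liraglutide was injected into the peritoneum daily at 0.2 μg per g body weight, and vehicle mice received PBS. Tumors were collected between days 19 and 22, or at 2000 mm3, and RNA was extracted from a frozen fragment of each of 5 liraglutide and 5 vehicle tumors, each from a different mouse.

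The question was whether treatment altered the tumor transcriptome. Total counts per tumor lay between 9927942 and 14480593, and a count of 3 corresponded to between 0.207 and 0.302 CPM (counts scaled to a common library size), a floor that covers counting error only. The epithelial keratin and cadherin markers summed to between 4703 and 10060 CPM, and of the 5 lung lineage genes Nkx2-1, Sftpb and Napsa were counted in every tumor, while Sftpc and Sftpa1 had no count in at least 1 tumor. Of the hepatocyte markers, Serpina1c and Fgb had no count in any tumor and the whole list of 6 summed to at most 14.7 CPM.

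Complement is a cascade of blood and tissue proteins that tags cells and debris for removal. In the classical pathway C1q binds a target and its partner protease C1s cleaves C4 and C2, whereas in the alternative pathway factor B joins C3b to form a C3-cleaving enzyme. Both converge on C3, and clusterin is among the soluble proteins that restrain the terminal membrane attack complex. Liver is the main source of most circulating components, while macrophages are a well-known source of C1q in tissues, and stromal and epithelial cells can make others locally.

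The genes lie in a few clusters of the mouse genome (positions from GENCODE M39 on GRCm39). The C1q chain genes are neighbours on the minus strand of chromosome 4, with C1qb (ENSMUSG00000036905.8) from 136606009 to 136613511, C1qc (ENSMUSG00000036896.5) from 136616466 to 136620376 and C1qa (ENSMUSG00000036887.5) from 136623223 to 136626161. On the minus strand of chromosome 17, C4b (ENSMUSG00000073418.4) spans 34947354 to 34962912, Cfb (ENSMUSG00000090231.10) spans 35074852 to 35081559, C2 (ENSMUSG00000024371.14) spans 35081578 to 35117241 and C3 (ENSMUSG00000024164.15) spans 57510964 to 57535155. C1s1 (ENSMUSG00000038521.17) occupies 124507297 to 124559389 on the minus strand of chromosome 6, and Clu (ENSMUSG00000022037.15) 66190200 to 66218999 on the plus strand of chromosome 14.

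RefSeq promoter windows on GRCm38.p6, from 250 bases before to 50 bases after the annotated start, were held for 4 of the 9 genes: C1qb, C1qc, C1s1 and C3. They are shown for C1qb and C1qc because these chains rose and fell together across tumors, and for C3 as the hub of the cascade. Capitals mark the matches found on either strand to the motifs searched.
C1qb, chr4:136886151-136886450, minus strand: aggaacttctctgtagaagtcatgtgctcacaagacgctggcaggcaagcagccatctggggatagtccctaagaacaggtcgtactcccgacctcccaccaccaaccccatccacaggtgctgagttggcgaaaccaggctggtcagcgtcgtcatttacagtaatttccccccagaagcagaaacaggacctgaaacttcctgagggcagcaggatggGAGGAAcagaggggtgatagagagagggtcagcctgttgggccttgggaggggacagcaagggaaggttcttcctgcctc
C1qc, chr4:136892865-136893164, minus strand: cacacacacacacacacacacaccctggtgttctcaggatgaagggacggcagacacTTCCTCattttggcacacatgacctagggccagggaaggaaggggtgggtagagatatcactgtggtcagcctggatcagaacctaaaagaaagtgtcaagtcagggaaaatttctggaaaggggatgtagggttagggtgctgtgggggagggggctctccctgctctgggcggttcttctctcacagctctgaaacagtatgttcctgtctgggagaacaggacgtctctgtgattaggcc
C3, chr17:57228087-57228386, minus strand: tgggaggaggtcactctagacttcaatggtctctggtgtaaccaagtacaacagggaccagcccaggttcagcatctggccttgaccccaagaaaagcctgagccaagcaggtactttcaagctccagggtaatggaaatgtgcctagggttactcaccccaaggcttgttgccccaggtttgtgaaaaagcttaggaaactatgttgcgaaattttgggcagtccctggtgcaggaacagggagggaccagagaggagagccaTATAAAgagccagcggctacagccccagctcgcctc

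The core letters bound by PU.1, a transcription factor of myeloid cells, were written GAGGAA, and occurred at bases 221 to 226 of the C1qb window and, as the reverse complement TTCCTC, at bases 58 to 63 of the C1qc window. This motif was present in 28.3% of 27025 promoter windows of the same length. The letters of a TATA box, TATAAA, were found at bases 265 to 270 of the C3 window, past the annotated start and so not where such a box usually lies, and were present in 14.2% of all windows. The interferon-γ activated site TTCNNNGAA, the interferon-stimulated response element and the AP-1 element TGANTCA, found in 8.47%, 3.49% and 7.93% of windows, had no match in these 4 genes, and no searched motif matched C1s1. C1qa, C2, C4b, Cfb and Clu had no entry.

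Clu was by far the most abundant of the 9 genes. Scaled by the length of the canonical transcript, its mean over all tumors was 1517 CPM per kilobase, between 566 and 2283 in single tumors, and in each tumor it ranked between 7 and 47 of 17267 genes. C1qa followed with a mean of 37.0 CPM per kilobase, then C1qc with 18.8, C1qb with 17.6, C3 with 13.6, C1s1 with 8.62 and C4b with 8.46, all with ranges over tumors that overlapped their neighbour in the order. Cfb, at 0.966 CPM per kilobase, and C2, at 0.338, were the lowest, and the ranges of C4b, Cfb and C2 did not overlap one another. Cfb and C2 share 65.7% and 38.4% of their exon bases on the same strand with the gene model Gm20547. Reads there may not have been counted, while the full lengths were used, so the levels of Cfb and C2 may be too low. C1qa stood above C1qb per kilobase in every tumor, by 1.84 to 2.78 times, but that ratio rests on canonical lengths of 1087 and 2532 bases.

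Liraglutide tumors held on average more clusterin transcript than vehicle tumors. Clu was at 1616, 1610, 2519, 2672 and 1028 CPM in vehicle tumors 1 to 5, and at 3790, 2290, 4146, 4123 and 3750 CPM in liraglutide tumors 1 to 5. Of the liraglutide tumors, 4 lay above every vehicle tumor, and liraglutide tumor 2 fell among the vehicle values. The means were 1889 ± 690 CPM (SD, n = 5) and 3620 ± 766 CPM (SD, n = 5), a log2 fold change of 0.94 (SE 0.26). Clu took between 0.0998% and 0.271% of all counts in vehicle tumors and between 0.230% and 0.422% in liraglutide tumors.

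Cfb encodes factor B, the protease precursor of the alternative pathway, and was the only one of the 9 genes whose groups did not overlap. It reached 1.87, 2.03, 2.20, 2.59 and 2.61 CPM in vehicle tumors 1 to 5, and 4.23, 3.02, 5.08, 4.44 and 4.24 CPM in liraglutide tumors 1 to 5. The lowest liraglutide tumor was again tumor 2. The means were 2.26 ± 0.333 CPM (SD, n = 5) and 4.20 ± 0.746 CPM (SD, n = 5), with a log2 fold change of 0.89 (SE 0.20). Across the genome 0.607% of 17464 tested genes were higher without overlap and 0.888% were lower, and since Cfb was chosen on this contrast nothing is read from its place among them.

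Factor B rested on few reads, between 20 and 67 counts per tumor. Its exons overlap those of its neighbours: 65.7% of the annotated exon bases are shared on the same strand with Gm20547, a gene model that joins C2 and Cfb, and 49.8% are shared on the opposite strand with Nelfe, a subunit gene of the negative elongation factor. Gm20547 had no count in any tumor. Nelfe stood at 31.8 ± 5.86 CPM in vehicle and 27.6 ± 4.45 CPM in liraglutide tumors (SD, n = 5 each), a log2 fold change of -0.20 (SE 0.15), in the opposite direction to Cfb. Reads in the exons shared with Gm20547 were thus not counted for it, and they may have been left out for Cfb too. The handling of reads shared between genes was not given in the sources used here. Nor was the strand setting, on which the Nelfe overlap depends.

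**Figure D1:**
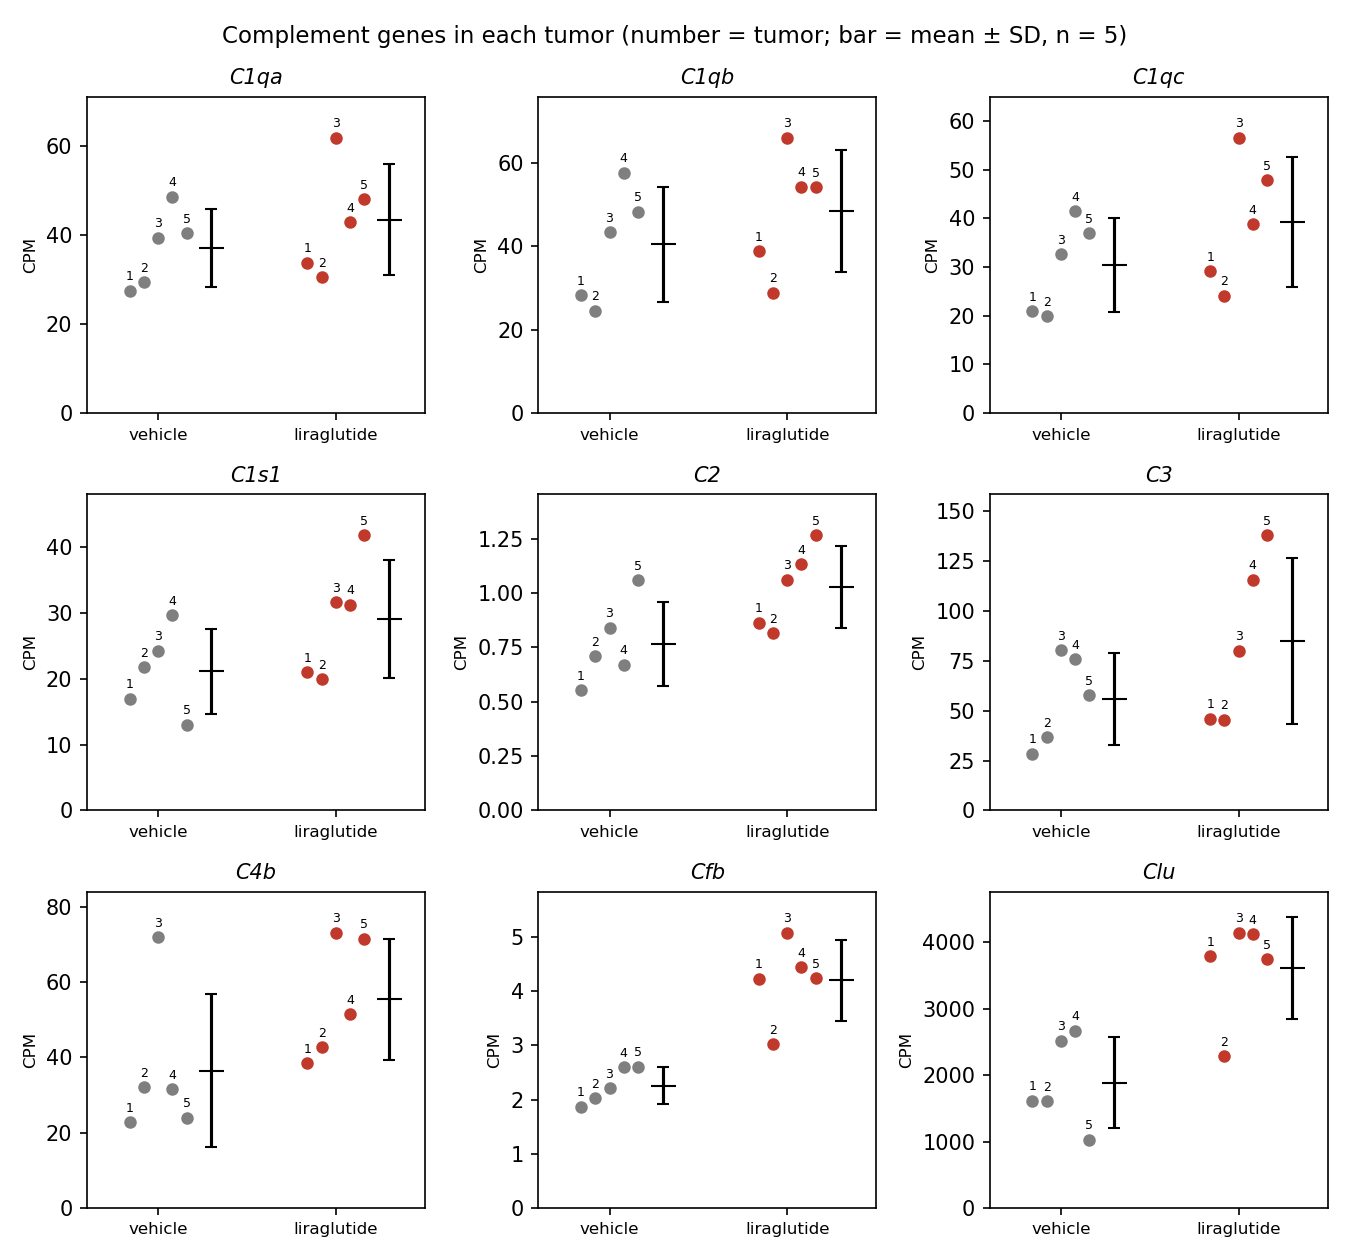
CPM (vertical axis, from 0, own scale per gene) of each complement gene in vehicle (gray) and liraglutide (red) tumors; each point is a tumor with its number, and black bars give the mean ± SD of 5 tumors. Only for Cfb do the groups not overlap, and liraglutide tumor 2 lies lowest among the treated tumors for C1qa, C1qb, C1qc, C1s1, C2, C3, Cfb and Clu.

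For the other 7 genes the liraglutide mean was also above the vehicle mean, but none passed edgeR's quasi-likelihood test after Benjamini-Hochberg adjustment over all 17464 genes tested, of which 0% were called (smallest adjusted p = 0.482). At an unadjusted p under 0.05, 694 genes (3.97%) were higher and 981 (5.62%) lower, and DESeq2 called 52 genes, 1.37% of the 3796 to which it gave an adjusted p. Of these 7 genes DESeq2 gave an adjusted p to C3 alone, and it was not called (0.411). A positive log2 fold change was found for 47.4% of all tested genes, with a median of -0.02, and for all 9 complement genes, with a median of 0.46. Because Cfb and Clu were picked for being higher, C2 passed the filter on low counts mainly through the treated group and the genes vary together, the direction of the 9 is a description.

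C1q, the recognition protein of the classical pathway, is assembled from the A, B and C chains. C1qa was at 27.4, 29.3, 39.4, 48.5 and 40.4 CPM in vehicle tumors and at 33.7, 30.4, 61.8, 42.8 and 47.9 CPM in liraglutide tumors. C1qb was at 28.3, 24.5, 43.5, 57.7 and 48.4 CPM in vehicle and at 38.8, 28.9, 66.1, 54.3 and 54.2 CPM in liraglutide tumors. C1qc was at 20.9, 19.9, 32.7, 41.4 and 37.0 CPM in vehicle and at 29.1, 24.1, 56.6, 38.7 and 47.9 CPM in liraglutide tumors.

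The groups overlapped for each chain, and liraglutide tumor 3 was the highest of all 10 tumors for all of them. The log2 fold change was 0.23 (SE 0.21, edgeR adjusted p = 0.727) for C1qa, 0.26 (SE 0.27, adjusted p = 0.751) for C1qb and 0.37 (SE 0.27, adjusted p = 0.657) for C1qc. Without liraglutide tumor 3 the difference was 0.07 for C1qa, 0.13 for C1qb and 0.21 for C1qc. In these bulk samples fewer cells of a type and less RNA per cell cannot be told apart.

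C1s1, which encodes the classical pathway protease C1s, stood at 16.99, 21.8, 24.3, 29.7 and 13.03 CPM in vehicle tumors and at 21.0, 19.9, 31.7, 31.3 and 41.8 CPM in liraglutide tumors. Liraglutide tumors 3, 4 and 5 exceeded every vehicle tumor, while tumors 1 and 2 fell among them, and the log2 fold change was 0.46 (SE 0.25, edgeR adjusted p = 0.577). Its near-identical neighbour C1s2 took at most 2.01% of their joint counts. C2, the serine protease that C1s cleaves, had few counts, between 7 and 17 per tumor. It shares 38.4% of its exon bases on the same strand with Gm20547, so part of its reads may not have been counted.

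The 5 vehicle tumors had 0.553, 0.71, 0.840, 0.669 and 1.06 CPM of C2, and the liraglutide tumors 0.864, 0.816, 1.06, 1.13 and 1.27 CPM. The log2 fold change was 0.43 (SE 0.26, edgeR adjusted p = 0.603). C2 passed the filter on low counts mainly through the treated group, since the threshold of 0.834 CPM, which the filter applies before TMM scaling, was met in 1 vehicle and 4 liraglutide tumors, so its difference is not independent of the filter. The other 8 genes met it in every tumor.

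C4b encodes complement C4, cleaved by C1s to form a part of the classical C3 convertase. It was at 22.7, 32.1, 71.9, 31.6 and 23.9 CPM in vehicle tumors and at 38.4, 42.7, 73.2, 51.5 and 71.6 CPM in liraglutide tumors. Apart from vehicle tumor 3, every vehicle tumor was below every liraglutide tumor. The log2 fold change was 0.61 (SE 0.32, edgeR adjusted p = 0.563) and was 1.01 (adjusted p = 0.602) when vehicle tumor 3 was left out. Its paralog C4a took between 4.73% and 18.6% of the joint C4 counts, and reads of the near-identical pair may have been split in counting.

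C3, the component on which the pathways converge, varied most of all. Its level was 28.3, 36.7, 80.4, 75.8 and 57.7 CPM in vehicle tumors and 45.9, 45.4, 80.1, 116 and 138 CPM in liraglutide tumors. Liraglutide tumors 4 and 5 lay above every vehicle tumor and tumors 1 and 2 below 3 of the 5. The log2 fold change was 0.61 (SE 0.37, edgeR adjusted p = 0.605), and 0.37 without liraglutide tumor 5. Skeletal muscle markers, whose 5 genes summed to between 29.6 and 232 CPM in vehicle and between 57.0 and 280 CPM in liraglutide tumors, were highest in liraglutide tumor 5, where C3 was highest, and next in vehicle tumor 3, where C3 was highest among vehicle tumors. In other tumors the orders differed: vehicle tumor 4 had 50.5 CPM of muscle markers and 75.8 CPM of C3, and liraglutide tumor 2 had 113 CPM of muscle markers and 45.4 CPM of C3. Their part in the C3 values was not tested.

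**Figure D2:**
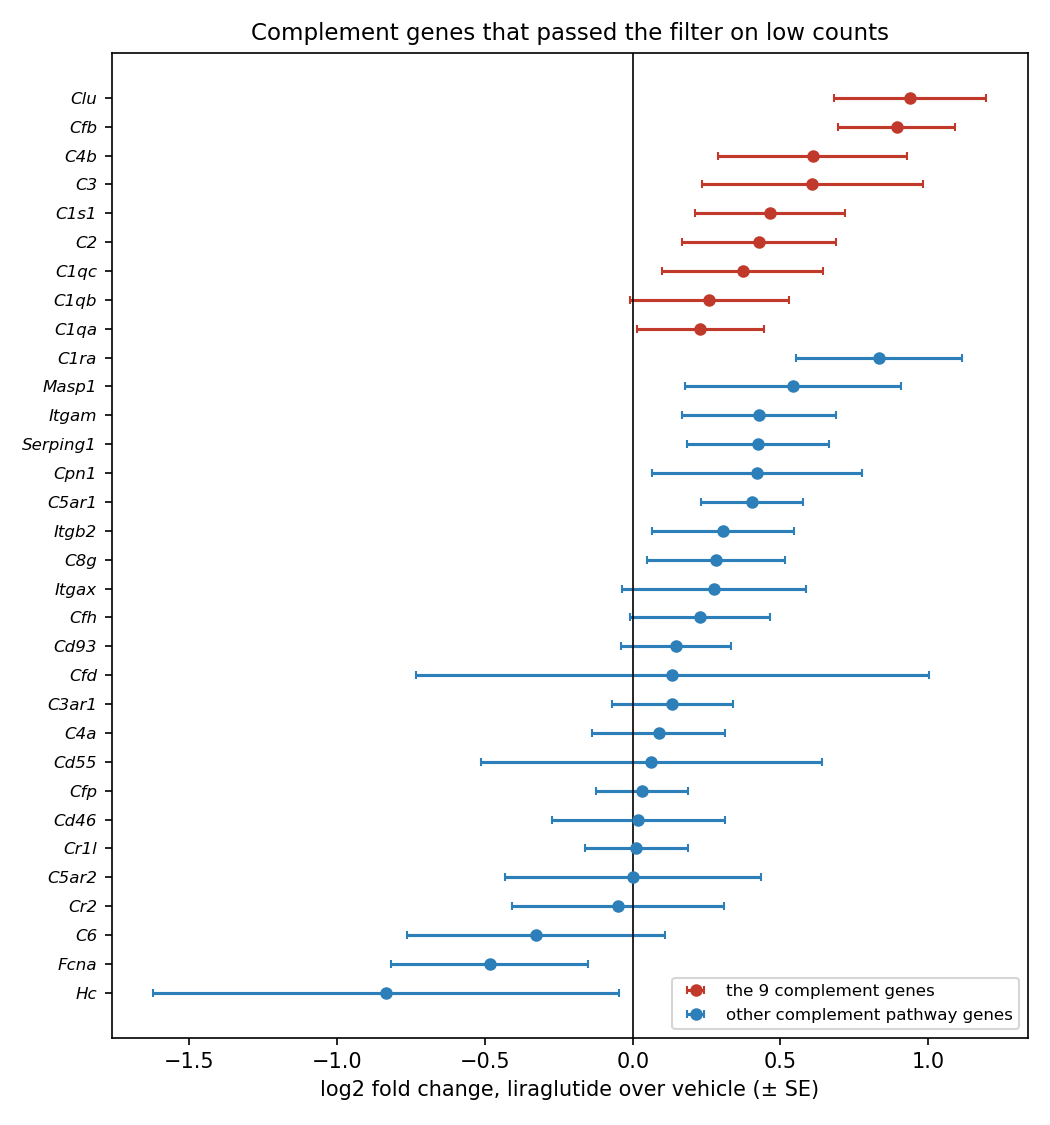
Log2 fold change of liraglutide over vehicle (horizontal axis, bars are SE from edgeR) for the 9 complement genes (red) and the 23 other complement pathway genes that passed the filter (blue). Clu at 0.94 and Cfb at 0.89 were chosen as higher genes; C1ra, at 0.83, has the highest value among the others and Hc, at -0.83, the lowest.

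Within a treatment group the genes differed in how much tumors varied. The within-group SD on the log2 scale was 0.70 for C3, 0.56 for C4b, 0.50 for C1qb, 0.49 for C1qc, 0.47 for Clu, 0.45 for C1s1 and 0.38 for C1qa, all above the median of the 1000 genes nearest to each in mean level. C3 varied more than 95.7% of its neighbours in level. Cfb and C2, which had the fewest counts, had SDs of 0.23 and 0.26 that exceeded those of 5.7% and 1.2% of their neighbours. Counting error is large at so few counts and was not separated from these SDs. They do not tell how much Cfb and C2 differ among tumors.

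The C1q chains varied together across tumors. After the group means were removed from the log2 CPM, Pearson's r over the 10 tumors was 0.980 for C1qa and C1qc (Spearman's rho 0.964), 0.978 for C1qb and C1qc (rho 0.927) and 0.949 for C1qa and C1qb (rho 0.891). The exact within-group permutation p-values were 0.000208, 0.000139 and 0.000417, or 0.00375, 0.00375 and 0.005 after Benjamini-Hochberg adjustment over 36 pairs. Leaving out the 2 tumors farthest from the median of the first gene gave r of 0.977, 0.969 and 0.947. Per kilobase, C1qc stood at between 0.975 and 1.21 times C1qb in every tumor.

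Cfb, a gene of another pathway arm on another chromosome, followed the same tumors. Its r was 0.894 with C1qb (rho 0.939, exact permutation p = 0.000833, adjusted p = 0.0075), 0.873 with C1qc (rho 0.879, p = 0.00208, adjusted p = 0.015) and 0.865 with C1qa (rho 0.867, p = 0.00396, adjusted p = 0.0238). Without the 2 farthest tumors these were 0.869, 0.825 and 0.796. Cfb had only 20 to 67 counts per tumor, and the part of counting error in its variation among tumors was not tested. Such values were not rare among genes: 1.16% of the tested genes had as high an r with Cfb as C1qb did, and 2.54% as high an r with C1qb as Cfb did. The Cfb and C1qb pair lost its call without liraglutide tumor 2, at an adjusted p of 0.113 and an r of 0.870. The Cfb and C1qc pair lost it without any of vehicle tumor 3 and liraglutide tumors 2 and 3, and the Cfb and C1qa pair without any of 5 tumors (vehicle 1 and 3, liraglutide 2, 3 and 5), whereas the C1q chains kept theirs without any tumor.

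Cfb and Clu, the genes with the largest treatment differences, gave a relation with each other that depended on single tumors. Their r was 0.410 (rho 0.370, exact permutation p = 0.231, adjusted p = 0.285) and -0.03 without the 2 farthest tumors. Without vehicle tumor 5, the tumor with the least Clu, r was 0.912 and the pair passed (exact permutation test, adjusted p = 0.0125), whereas without liraglutide tumor 2 r was 0.0367. Clu was closest to C1s1, with an r of 0.798 (exact permutation p = 0.00931, adjusted p = 0.0479). By Spearman's rho, 0.745, the pair did not pass (exact permutation p = 0.0258, adjusted p = 0.116). That relation rested on few tumors: r was 0.538 without the 2 farthest tumors, and among the 10 fits that left out a tumor the pair passed only in the 2 without liraglutide tumor 1 or 5. In all, 35 of the 36 pairs had a positive r, with a median of 0.604, and 7 pairs passed the adjusted threshold by Pearson's r and 6 by Spearman's rho. An r near that median was common over the genome for the C1q chains: 21.6% of tested genes had as high an r with C1qb as C2 did, at 0.609.

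**Figure D3:**
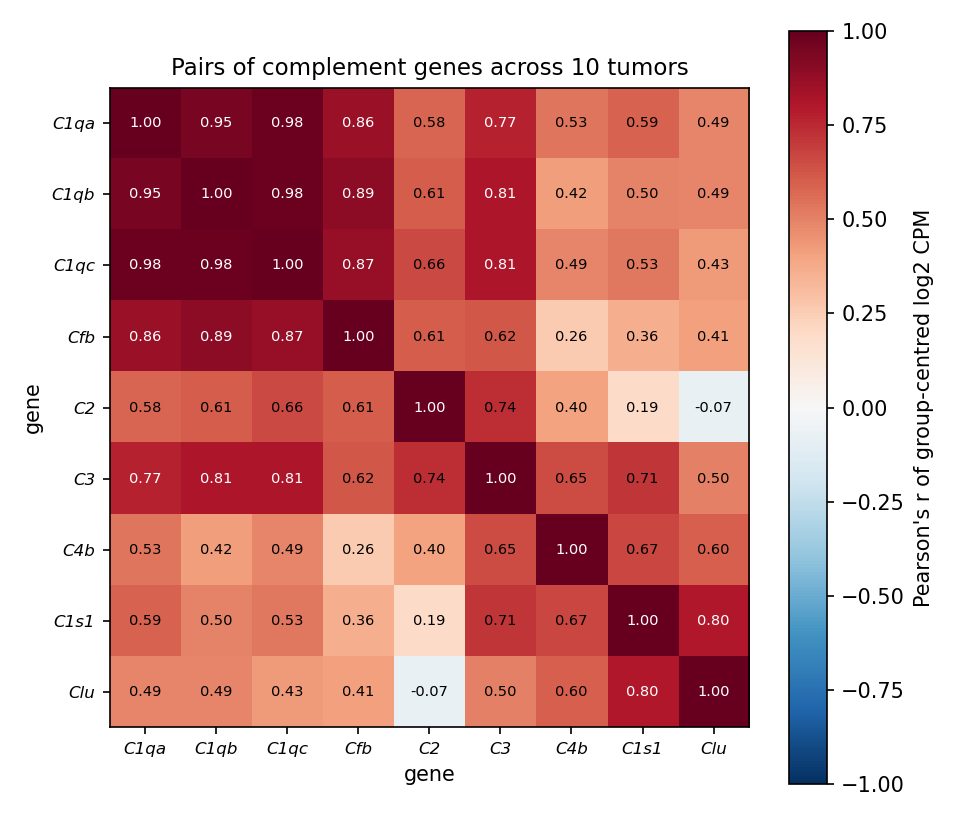
Pearson's r between each pair of the 9 genes across 10 tumors, computed on log2 CPM with the mean of each treatment group removed; rows and columns are genes, and color and number give r from -1 to 1. The block of C1qa, C1qb, C1qc and Cfb holds the highest values, from 0.86 to 0.98, and Clu is closest to C1s1 at 0.80.

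The genes most like each of the higher genes differed. For Cfb the tested genes with the highest r over the 10 tumors were Fabp2, an intestinal fatty acid binding protein, Slco2a1, a prostaglandin transporter, S100a6, Gsta4 and Ethe1, at 0.972, 0.971, 0.967, 0.962 and 0.961, and 167 genes exceeded 0.9. For Clu they were Xk, Tnfaip8l2, Bmpr2, a BMP receptor, Snx14 and Epha4, an ephrin receptor, at 0.943, 0.941, 0.939, 0.929 and 0.923, and 14 genes exceeded 0.9. These are the top values among 17464 genes each and carry no test, and those of Cfb rest on 20 to 67 counts per tumor.

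Macrophage, fibroblast, epithelial, endothelial, neutrophil, T cell and interferon-γ response lists were set beside the 9 genes in the same way, which gave 63 correlations. None passed after adjustment, although 21 had an unadjusted exact permutation p under 0.05 by Pearson's r and 20 by Spearman's rho. That count depended on single tumors, since 12 correlations passed without vehicle tumor 5, 4 without vehicle tumor 3 and 2 without vehicle tumor 4. The smallest adjusted p was 0.0656, for Cfb and the epithelial list (r = 0.844). C4b and the macrophage list had an r of 0.864 (adjusted p = 0.0809), C1qc and the T cell list 0.860 (adjusted p = 0.0968), and Clu and the macrophage list 0.789 (adjusted p = 0.0968), all by the exact permutation test. Others had the same adjusted p of 0.0968, among them C1qa and the macrophage list (r = 0.818) and Cfb and the neutrophil list. The latter had the lowest r of all, -0.747, and 44 of the 63 were positive.

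The macrophage list of 10 genes summed to between 564 and 1141 CPM in vehicle tumors and between 600 and 744 CPM in liraglutide tumors, with 8 members higher and 2 lower with liraglutide and none called by edgeR. Mrc1, a scavenger receptor, made up between 38.5% and 74.4% of the sum in vehicle and between 31.7% and 63.2% in liraglutide tumors, with means of 537 and 322 CPM. Keratinocyte markers were between 8.36 and 17.6 CPM in vehicle tumors but reached 200 CPM in liraglutide tumor 2, the treated tumor with the least Clu and Cfb, 76.2 CPM in tumor 4 and 49.9 CPM in tumor 5, while liraglutide tumors 1 and 3 had 6.65 and 6.82 CPM, below every vehicle tumor. The part of these cells in the complement values was not tested.

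Cfb is known to be induced by interferon-γ in many cell types, and the response genes were read tumor by tumor. The 20 genes, Irf1 and guanylate binding proteins among them, summed to 279, 434, 732, 2085 and 3121 CPM in vehicle tumors 1 to 5 and to 1078, 1657, 2391, 2627 and 2768 CPM in liraglutide tumors 1 to 5. Vehicle tumors 1 to 3 were below every liraglutide tumor, and vehicle tumor 5 was above all of them. All 20 genes had a higher liraglutide mean, with a median log2 fold change of 0.64, but none was called by edgeR and none had an unadjusted p under 0.05.

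Among vehicle tumors 1 to 5 the order by interferon-γ response genes was also the order by Cfb, but it was not among liraglutide tumors or across the groups. Vehicle tumors 4 and 5, with sums of 2085 and 3121 CPM, had 2.59 and 2.61 CPM of Cfb, whereas liraglutide tumor 1, with a sum of 1078 CPM, had 4.23 CPM. Vehicle tumor 5, which had the highest sum, had the lowest Clu of all tumors, 1028 CPM. Within groups, r with the response list was 0.781 for C1qc, 0.774 for C1qb, 0.678 for Cfb (rho 0.733) and -0.06 for Clu, none past the adjusted threshold of the exact permutation test (adjusted p = 0.0968, 0.0968, 0.0968 and 0.957). The part of the interferon-γ response in the complement values was not tested.

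**Figure D4:**
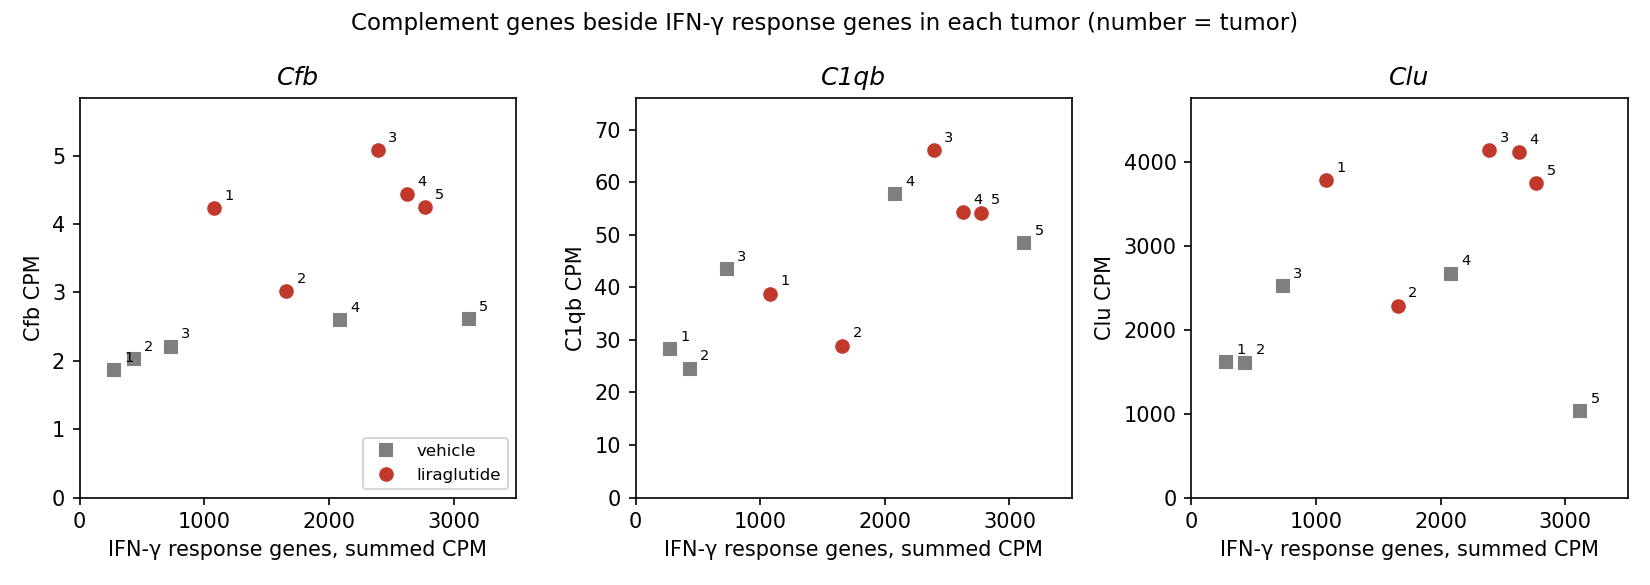
CPM of Cfb, C1qb and Clu (vertical axes) against the summed CPM of 20 interferon-γ response genes (horizontal axis) in vehicle (gray squares) and liraglutide (red circles) tumors, with tumor numbers. Cfb follows the order of the response sum among vehicle but not among liraglutide tumors, liraglutide tumor 1 lies above vehicle tumors 4 and 5 for Cfb at a lower sum, and vehicle tumor 5 combines the highest sum, 3121 CPM, with the lowest Clu, 1028 CPM.

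The rest of the pathway was read from 46 further genes. Of these, 23 passed the filter on low counts, 19 with a higher and 4 with a lower liraglutide mean (82.6% higher, against 47.4% of all tested genes), with a median log2 fold change of 0.13, and edgeR called none. C1ra, the protease that activates C1s, and C5ar1, the main C5a receptor, were the only ones with an unadjusted p under 0.05, which 3.97% of all tested genes reached as higher and 5.62% as lower. DESeq2 gave no adjusted p to any of the 23. Without single tumors between 14 (without liraglutide tumor 3) and 19 of the 23 had a higher mean, and the median lay between 0.04 (without liraglutide tumor 5) and 0.32 (without vehicle tumor 4).

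C1ra was at 6.63, 7.60, 7.56, 14.3 and 6.92 CPM in vehicle tumors and at 10.3, 10.2, 17.2, 16.7 and 22.3 CPM in liraglutide tumors. Vehicle tumor 4 was the exception, the others lying below every liraglutide tumor, and the log2 fold change was 0.83 (SE 0.28), with an adjusted p of 0.482 from edgeR's test across all genes. Per kilobase C1ra ran at between 0.305 and 0.531 times its partner C1s1. C5ar1 had a mean of 6.22 ± 1.29 CPM (SD, n = 5) in vehicle and 8.22 ± 0.999 CPM (SD, n = 5) in liraglutide tumors, with a log2 fold change of 0.40 (SE 0.17, edgeR adjusted p = 0.515).

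By role, Fcna, a ficolin of the lectin pathway, stood beside C1ra at 4.01 and 4.02 CPM per kilobase, the highest values of the other classical and lectin genes. Properdin (Cfp), which stabilizes the alternative convertase, had 8.87 CPM per kilobase and a log2 fold change of 0.03. Among regulators the highest were the membrane protein Crry (Cr1l), at 32.9 CPM per kilobase with a log2 fold change of 0.01 (SE 0.17), and C1 inhibitor (Serping1), at 17.8 CPM per kilobase with 0.42 (SE 0.24, edgeR adjusted p = 0.583). Itgb2, the shared chain of the integrin complement receptors, led the receptors at 8.18 CPM per kilobase.

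Hc, which encodes C5, was the highest terminal gene per kilobase, at 2.14, 8.41, 5.35, 41.5 and 61.6 CPM in vehicle tumors and 6.65, 5.55, 20.5, 22.2 and 11.98 CPM in liraglutide tumors. Its highest values were in vehicle tumors 4 and 5, and its log2 fold change was -0.83 (SE 0.79, edgeR adjusted p = 0.728). C1rb, Mbl2, Fcnb, C8a and C8b had no count in any tumor and Colec10 stayed under 3 counts in every tumor, so that they were not detected at this depth.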

How the data were processed

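RNA of 10 tumors was sequenced from ribosomal-RNA-depleted, dUTP-stranded libraries. The authors mapped read pairs with Bowtie and TopHat to GRCm39, as their methods state (the submitters' processing notes list GRCh38 and mm10), counted them per gene with featureCounts, left out samples at quality assessment and deposited raw counts without normalization. Annotation release, strand setting and handling of multiply mapped pairs were not given in the sources used here.

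Identifiers were matched without version to GENCODE M39 (51731 of 55401, 93.38%, with 98.31% of counts). Groups came from sample titles, and the labels name no batch. In R 4.3.3, edgeR 4.0.16 kept 17464 genes (filterByExpr), scaled them by TMM and tested liraglutide against vehicle by the quasi-likelihood F test without covariates. CPM are TMM-scaled, and log2 values for correlations used a prior count of 2. Benjamini-Hochberg adjustment ran over all genes tested, with a threshold of 0.05. The study's DESeq2 (1.42.0), limma-voom (limma 3.58.1), other filters and scalings, the tumor number as a block and each tumor left out were alternatives. Correlations used log2 CPM centred by group, with all 14400 within-group permutations, two-sided. The scripts were tested on simulated data. Named were the 9 genes, other complement genes with an unadjusted p under 0.05, under 3 counts everywhere or highest per length in their role, and the 5 genes most like Cfb and Clu. The 9 genes and all lists were chosen with earlier results of these data known. Tumors of a group came from different mice and differed by at least 9.31 times counting error (chi-square per degree of freedom). Some named items are not reported here.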

Additional observations from a re-analysis of the deposited data

Results flagged for a closer look

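A tumor stood far from the other 4 of its group, by Dixon's test at the 95% level, in 5 of the 64 groups of complement values examined, and chance alone marks about 1 in 20 groups. C4b in vehicle tumor 3 was 71.9 CPM, with the next vehicle tumor at 32.1 CPM. Clu in liraglutide tumor 2 was 2290 CPM, with the next treated tumor at 3750 CPM. C1ra in vehicle tumor 4 was 14.3 CPM and the next 7.60 CPM. Cpn1, a subunit of the anaphylatoxin-inactivating carboxypeptidase N, was 0.315 CPM in vehicle tumor 3 against 1.17 CPM in the next tumor, a value of 3 counts. Cd55, a membrane regulator that hastens decay of C3 convertases, was 17 CPM in liraglutide tumor 5 and 5.23 CPM in the next tumor.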

How the results depend on the processing

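The direction of each of the 9 complement genes was kept under each alternative in which it was tested, and none of the 7 tested genes was called where it had an adjusted p. DESeq2 gave one to C3 alone (0.411), and C2 had no value with at least 10 counts required in every tumor. Log2 fold changes ranged with single tumors left out from 0.07 to 0.36 for C1qa, 0.12 to 0.43 for C1qb, 0.21 to 0.52 for C1qc, 0.30 to 0.63 for C1s1, 0.32 to 0.59 for C2, 0.37 to 0.78 for C3, 0.48 to 1.01 for C4b, 0.82 to 1.00 for Cfb and 0.79 to 1.11 for Clu. The genes called over the genome were 0 under edgeR and limma-voom and 52 under DESeq2. Of the other complement genes, 30 had a higher mean under DESeq2 or with all genes of at least 1 count, where 40 were fitted in place of 23, and between 14 and 19 of 23 with single tumors left out (14 without liraglutide tumor 3, 15 without vehicle tumor 1, 2 or 5 or liraglutide tumor 5, 16 without vehicle tumor 3). Pairs past the adjusted threshold numbered between 3 (without liraglutide tumor 2) and 16 (without vehicle tumor 5), with 4 without vehicle tumor 3, and list correlations between 0 and 12 (without vehicle tumor 5), with 4 without vehicle tumor 3 and 2 without vehicle tumor 4. The cause was not tested. Tumor numbers were not taken as pairs, since same-numbered tumors, which came from different mice, correlated at 0.35, 0.57, -0.08, 0.07 and 0.39 (mean 0.26, against -0.07 for other vehicle and liraglutide tumors), and 1 of 5 vehicle tumors was most like its own number. With the replicate block edgeR called 0 genes and the log2 fold changes were 0.21, 0.27, 0.37, 0.45, 0.43, 0.57, 0.69, 0.89 and 0.99 for C1qa, C1qb, C1qc, C1s1, C2, C3, C4b, Cfb and Clu. The block did change the fit: edgeR's unadjusted p was under 0.05 for 2585 genes with it and 1675 without it. The SE fell from 0.27 to 0.12 for C1qb and from 0.37 to 0.17 for C3, but rose slightly for C2 (0.260 to 0.267) and Cfb (0.197 to 0.201). Depth limits C2, with at most 17 counts, and Cfb, with at most 67.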
